A study of Mus musculus with 36 samples.

Results

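Chemokines are small secreted proteins that guide leukocytes through tissue by binding to receptors that couple to G proteins. They fall into families by the spacing of their first cysteines: CC ligands such as Ccl2 mainly attract monocytes and lymphocytes, CXC ligands with an ELR motif such as Cxcl1 and Cxcl5 attract neutrophils, and Cxcl12 and Cxcl14 are made by resting tissue. Fibroblasts are a well known source of chemokines, many of which are switched on by NF-κB and interferon signalling, and glucocorticoids are known to lower them through the glucocorticoid receptor (GR). The 10 chemokine genes described here, Ccl2, Ccl7, Ccl5, Cxcl1, Cxcl5, Cxcl10, Cxcl12, Cxcl14, Cxcl16 and Cx3cl1, were chosen by name and read from a table of counts for 55487 genes, of which 15489 passed a filter on low counts. All 10 are in the table and all 10 passed the filter, but Ccl5 and Cxcl10 passed it through run 2 and GRko/ko and held only 0 to 4 counts in each of the other 18 libraries of run 1.

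The cells were murine embryonic fibroblasts (MEFs), primary cultures grown from mouse embryos, and RNA was taken after 5 h with vehicle or with 1 µM dexamethasone (Dex), a synthetic GR agonist. Run 1 held GRwt/wt (replicates 1 to 3), GRD/D, GRD+L/D+L and GRko/ko, and run 2 held GRL/L and GRwt/wt (replicates 4 to 6), with 3 vehicle and 3 Dex libraries in each of these 12 groups. The D allele changes a residue of the dimerization loop in the DNA-binding domain of GR, the L allele changes a residue in the ligand-binding domain, D+L carries both, and GRko/ko is homozygous for a null allele. According to the series design, each of the 3 cultures of a genotype came from a different mouse. The alleles are germline changes present in every cell of a culture, and the cultures came from whole embryos without head and organs. The labels give FVB/NJ for all libraries, whereas the methods of the study place the null allele on a 129 background, so that GRko/ko differed from GRwt/wt in more than the GR gene if the methods hold. GRwt/wt of run 1 and of run 2 are other cultures, so that run and culture cannot be told apart.

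In GRko/ko, Nr3c1 (the gene for GR) stood at 16.1, 17.97 and 15.9 normalised CPM (counts scaled to a common library size) with vehicle, against 67.2, 69.2 and 74.3 in GRwt/wt of run 1, a log2 difference of −2.08 ± 0.07 (adjusted p = 2.44e-23). It was therefore reduced but not at 0. In GRD+L/D+L it was higher than in GRwt/wt, by 0.47 ± 0.06 (adjusted p = 2.17e-07). A list of 6 known GR-induced genes (Sgk1, Per1, Dusp1, Fkbp5, Tsc22d3 and Klf9) rose with Dex in 6 of 6 cases in both sets of GRwt/wt and in GRL/L, while in GRko/ko 0 of the 6 passed the test. In GRD/D and in GRD+L/D+L 5 of them rose and Dusp1 fell. Library totals were 15280166 to 28662608 counts. All 10 fibroblast markers examined were present in every group with summed levels of 32860 to 50460 CPM with vehicle. The vehicle replicate 6 of GRwt/wt stood apart in the keratins Krt14 and Krt5, with 25.0 and 20.6 CPM, and it also held the highest value of its group for every one of the 10 chemokines but Cx3cl1. Without it all 9 falls of GRwt/wt in run 2 kept their call, with log2 fold changes such as −2.43 for Ccl2 and −1.64 for Cxcl10 (adjusted p = 0.0112).

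RefSeq windows of the assembly GRCm38.p6, from 250 bases before to 50 after the start site, were at hand for 5 of the 10 genes. Those of Cxcl1 and Cxcl10, which fell with Dex in run 2, and of Cxcl12, whose vehicle level ranged from 12.3 to 627 CPM over the genotypes, are shown 5′ to 3′ on the coding strand. Capitals mark matches to the κB consensus, the ISRE core (GAAA, any 2 bases, GAAA) and the AP-1 site TGANTCA, searched on both strands.
Cxcl1, chr5:90890995-90891294, plus strand: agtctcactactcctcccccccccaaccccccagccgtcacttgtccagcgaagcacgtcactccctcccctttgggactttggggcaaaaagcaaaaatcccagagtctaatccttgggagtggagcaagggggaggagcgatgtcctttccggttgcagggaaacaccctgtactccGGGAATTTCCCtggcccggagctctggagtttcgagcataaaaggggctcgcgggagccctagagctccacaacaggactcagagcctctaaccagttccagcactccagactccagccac
Cxcl10, chr5:92348840-92349139, minus strand: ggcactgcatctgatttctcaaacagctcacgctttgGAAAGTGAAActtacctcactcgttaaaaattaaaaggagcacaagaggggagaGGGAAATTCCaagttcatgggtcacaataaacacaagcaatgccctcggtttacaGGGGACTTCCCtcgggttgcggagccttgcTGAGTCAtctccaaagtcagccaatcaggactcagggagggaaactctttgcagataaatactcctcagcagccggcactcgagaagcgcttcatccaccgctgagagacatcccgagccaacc
Cxcl12, chr6:117168285-117168584, plus strand: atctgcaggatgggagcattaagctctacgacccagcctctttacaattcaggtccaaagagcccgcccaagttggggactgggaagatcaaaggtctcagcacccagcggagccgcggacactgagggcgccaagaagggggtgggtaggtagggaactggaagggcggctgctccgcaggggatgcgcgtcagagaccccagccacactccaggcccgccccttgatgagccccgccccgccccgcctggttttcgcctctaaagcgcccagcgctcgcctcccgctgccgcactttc
The Cxcl1 window held 2 overlapping κB matches shifted by 1 base. The match on the coding strand began 71 bases and that on the other strand 70 bases before the start site. The Cxcl10 window held an ISRE core 213 bases, κB matches 159 and 104 bases, the second of which overlaps a further match shifted by 1 base, and an AP-1 site 74 bases before the start site. Among 32851 promoter windows of the same length, a κB match was found in 8.46%, an ISRE core in 3.44% and an AP-1 site in 7.81%. The Cxcl12 and Cx3cl1 windows held none of the motifs searched, and that of Cxcl14 held an ISRE core 172 bases and a GRE half-site AGAACA 193 bases before its start site, the half-site being present in 19.0% of all windows. The full GRE spelled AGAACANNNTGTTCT was in none of the 5 windows and in 0.00913% of all. These matches are letters in a window and not evidence that a factor binds.

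In GRwt/wt MEFs, Dex lowered 5 of the 10 chemokine mRNAs in run 1 and 9 in run 2. In run 1, Ccl2, Ccl7, Cxcl14, Cxcl16 and Cx3cl1 fell and Cxcl12 rose, so that 5 genes passed the test in the lower direction, where 6.2% of all genes tested were called, and 1 in the higher, where 7.74% were. In run 2, 9 of the 10 fell, against 16.7% of all genes, and none rose, against 14.9%. Ccl5 did not pass. The median log2 fold change of the 10 genes was −0.46 in run 1 and −1.67 in run 2, and that of all genes tested was −0.002 and −0.011. A gene is said here to have risen, fallen or passed when the adjusted p of edgeR's quasi-likelihood test was at most 0.05 over all 15489 genes, and errors of log2 values are standard errors.

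Among the mutants, in GRL/L the same 9 genes fell, against 10.4% of all genes, and none rose, against 8.79%. In GRD/D 3 genes fell (Ccl2, Cxcl14 and Cx3cl1), against 6.24% of all genes, and none rose, against 5.63%. In GRD+L/D+L 2 fell (Cxcl14 and Cxcl16), against 1.92%, and none rose, against 3.08%. In GRko/ko 0 of the 10 passed and 0.0% of all genes did by edgeR; at an unadjusted p under 0.05 there were 859 genes (5.55%) and 0 of the 10. DESeq2 likewise called 0 of the 10 in GRko/ko. Ccl5 and Cxcl10 had a mean count of at most 3 in both treatments in GRwt/wt of run 1, GRD/D and GRD+L/D+L, and no fold is given for them there.

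**Figure D1:**
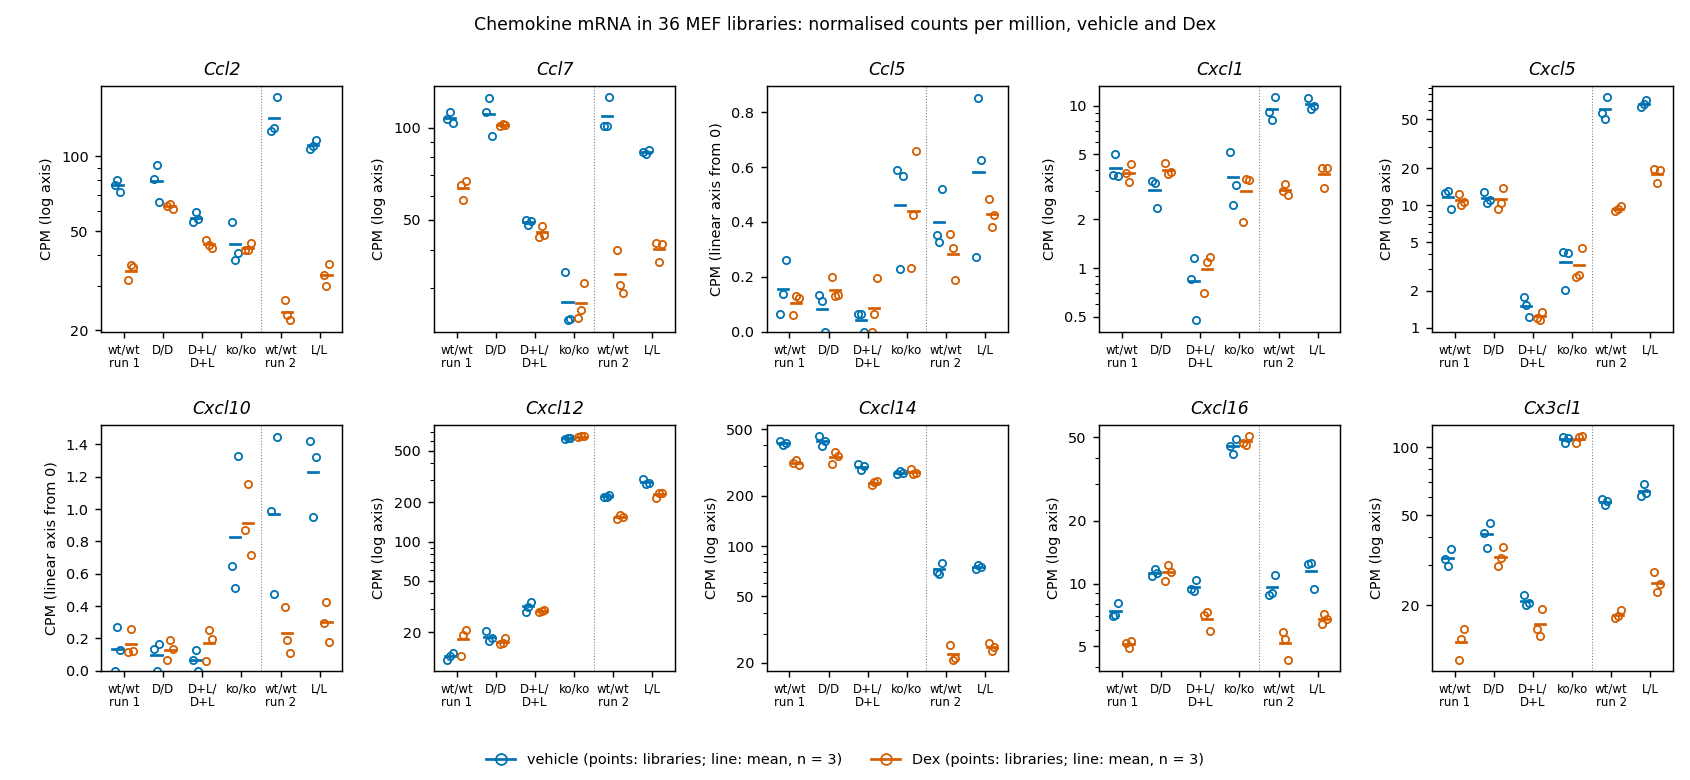
Normalised CPM of each of the 10 chemokine genes (vertical axes, logarithmic except for Ccl5 and Cxcl10, which start at 0) in the 36 libraries, by genotype and run (horizontal axes; the dotted line separates run 1 from run 2). Circles are libraries, bars are means of 3, blue is vehicle and orange is Dex; in run 2 the blue and orange circles of Ccl2, Ccl7, Cxcl1, Cxcl5, Cxcl14 and Cx3cl1 are apart, and in GRko/ko they overlap for every gene but Cxcl12.

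Ccl2 and Ccl7 encode monocyte attractants that signal through Ccr2 and lie close together, Ccl2 (chr11:82035571-82037453, plus strand) and Ccl7 (chr11:82045712-82047525, plus strand), with positions from GENCODE M21 on GRCm38, the build of the counts. Ccl2 in GRwt/wt of run 1 stood at 76.4, 80.6 and 71.9 CPM with vehicle and at 31.9, 36.4 and 35.7 with Dex. In run 2 it fell from 126, 129.7 and 173 to 26.4, 23.04 and 21.9. The treatments did not overlap in either run, and the log2 fold change was −1.14 ± 0.12 (adjusted p = 7.51e-10) in run 1 and −2.59 ± 0.11 (adjusted p = 1.34e-20) in run 2, a 2.20-fold and a 6.01-fold decrease. The fall was larger in run 2 by 1.45 ± 0.16 on the log2 scale (log2 difference −1.45, adjusted p = 2.28e-08).

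In GRD/D, Ccl2 was 81.03, 92.1 and 65.4 CPM with vehicle and 63.1, 64.1 and 61.5 with Dex. The lowest vehicle library lay close to the Dex libraries, and the log2 fold change of −0.34 ± 0.11 (adjusted p = 0.0345) lost its call without any 1 of the 3 Dex libraries or vehicle replicate 1 or 2 (adjusted p up to 0.271), with only the libraries compared (0.0957) or in a fit of 1 GRwt/wt response to both runs (the one fit for both runs, 0.314). Ccl2 in GRD+L/D+L was 54.3, 59.7 and 56.0 in the vehicle libraries and 46.2, 43.97 and 42.8 in the Dex libraries. These did not overlap, but the log2 fold change of −0.35 ± 0.12 (adjusted p = 0.0674) missed the threshold, though it passed with DESeq2 (adjusted p = 0.04) and without any 1 of GRD/D vehicle replicates 2 and 3, GRko/ko vehicle replicate 1 and GRwt/wt vehicle replicate 6 (adjusted p = 0.0264 to 0.0442). The fall in GRD+L/D+L also passed with only the libraries compared (adjusted p = 7.65e-07) and without a filter on low counts (2.62e-05). In GRko/ko the vehicle values of 54.2, 38.1 and 41.02 enclosed the Dex values of 41.9, 41.97 and 44.7. GRL/L fell from 107, 110.2 and 116 to 33.3, 30.02 and 36.9, a log2 fold change of −1.73 ± 0.10 (adjusted p = 1.36e-15).

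Against the GRwt/wt of its run, the Dex response of Ccl2 differed in all 4 mutants. The log2 difference was 0.80 ± 0.16 (adjusted p = 0.00101) in GRD/D, 0.78 ± 0.16 (adjusted p = 0.0019) in GRD+L/D+L and 1.08 ± 0.16 (adjusted p = 6.59e-06) in GRko/ko, which share their GRwt/wt libraries. In GRL/L it was 0.86 ± 0.15 (adjusted p = 0.000483) against GRwt/wt of run 2. Positive values mean a smaller fall than in GRwt/wt. So GRL/L still fell 3.32-fold where its GRwt/wt fell 6.01-fold, and GRD/D fell 1.26-fold where its GRwt/wt fell 2.20-fold. Ccl2 overlaps the predicted gene Gm17268, and reads of both genes cannot be told apart where the counting ignored strand.

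Ccl7 also fell in both runs. In GRwt/wt of run 1 it went from 107, 112 and 103 CPM to 65.1, 58.2 and 67.2, and in run 2 from 101, 101 and 126 to 40.0, 30.7 and 28.9. The vehicle libraries of the runs overlapped and the Dex libraries of run 2 lay lower. The log2 fold change was −0.76 ± 0.11 (adjusted p = 9.64e-07) in run 1 and −1.72 ± 0.11 (adjusted p = 7.02e-16) in run 2. The difference between the runs was −0.96 ± 0.15 (adjusted p = 1.99e-05). In GRL/L Ccl7 went from 83.3, 81.9 and 84.5 to 42.1, 36.5 and 41.6, a log2 fold change of −1.05 ± 0.10 (adjusted p = 4.33e-10). It fell by less than in GRwt/wt of run 2, with a log2 difference of 0.67 ± 0.15 (adjusted p = 0.0086).

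In GRD/D the Ccl7 libraries of both treatments overlapped, at 113, 125 and 93.7 CPM and 102, 103 and 102, and the log2 fold change was −0.12 ± 0.10 (adjusted p = 0.53). It was −0.11 ± 0.12 (adjusted p = 0.774) in GRD+L/D+L. Neither passed, and both differed from GRwt/wt of run 1, by 0.64 ± 0.15 (adjusted p = 0.00617) and 0.65 ± 0.16 (adjusted p = 0.0104). The difference in GRko/ko was 0.75 ± 0.17 (adjusted p = 0.00206). With vehicle, Ccl7 was 49.95, 48.1 and 49.5 in GRD+L/D+L and 33.8, 23.5 and 23.6 in GRko/ko. Both groups were below every GRwt/wt library of run 1, with log2 differences of −1.13 ± 0.11 (adjusted p = 2.35e-10) and −1.996 ± 0.12 (adjusted p = 4.25e-17). Ccl2 with vehicle was also lower in both, with log2 differences of −0.43 ± 0.11 (adjusted p = 0.00266) and −0.78 ± 0.11 (adjusted p = 2.98e-07), and in GRD/D it did not pass (0.06 ± 0.11, adjusted p = 0.814). In GRL/L both genes were lower than in GRwt/wt of run 2, with log2 differences of −0.36 ± 0.10 (adjusted p = 0.0104) for Ccl2 and −0.40 ± 0.10 (adjusted p = 0.00555) for Ccl7. Without GRwt/wt vehicle replicate 6 neither call held (adjusted p = 0.209 and 0.0869), and that of Ccl2 was also lost without GRL/L vehicle replicate 1. In the one fit for both runs both calls were lost too (0.772 and 0.405).

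Cxcl1 and Cxcl5 encode neutrophil attractants with an ELR motif that bind Cxcr2, and their Dex response passed in run 2 only. They are Cxcl1 (chr5:90891241-90893115, plus strand) and Cxcl5 (chr5:90759360-90761624, plus strand). Cxcl5 in GRwt/wt of run 1 was 12.5, 12.9 and 9.28 CPM with vehicle and 12.2, 9.98 and 10.7 with Dex. In run 2 it went from 56.7, 50.6 and 76.1 to 8.87, 9.24 and 9.78. Every vehicle library of run 2 was above every library of run 1. The log2 fold change was −0.07 ± 0.18 (adjusted p = 0.861) in run 1 and −2.71 ± 0.14 (adjusted p = 1.42e-18) in run 2, a difference of −2.64 ± 0.23 (adjusted p = 6.78e-11). That 6.57-fold fall was the largest of the 10 genes in run 2.

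Cxcl1 showed the same arrangement at lower counts. It was 3.76, 5.00 and 3.70 CPM in the vehicle libraries of run 1 and 3.84, 3.37 and 4.36 in its Dex libraries. Run 2 gave 9.13, 8.13 and 11.3 and 2.97, 3.27 and 2.82. The treatments overlapped in run 1 (−0.10 ± 0.22, adjusted p = 0.845) and were apart in run 2 (−1.65 ± 0.18, adjusted p = 6.55e-10), and the responses differed by −1.55 ± 0.28 (adjusted p = 0.000212).

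In GRL/L, Cxcl5 fell from 63.2, 66.1 and 72.2 CPM to 19.7, 15.1 and 19.4. Its Dex libraries were all above those of GRwt/wt of run 2 while its vehicle libraries were in the same range (0.14 ± 0.11, adjusted p = 0.519). The log2 fold change was −1.89 ± 0.12 (adjusted p = 8.35e-15), and the fall was smaller than in GRwt/wt by 0.82 ± 0.19 (adjusted p = 0.00945), a difference that DESeq2 did not call (adjusted p = 0.0718). Without GRwt/wt vehicle replicate 6 the differences of GRL/L were 0.69 for Ccl2, 0.55 for Ccl7 and 0.64 for Cxcl5, and each kept its call (adjusted p = 0.00273, 0.0404 and 0.0405). Cxcl1 fell in GRL/L with a log2 fold change of −1.42 ± 0.17 (adjusted p = 1.13e-08). Its difference of 0.23 ± 0.24 (adjusted p = 0.768) from GRwt/wt did not pass, with an approximate 95% interval of −0.24 to 0.71.

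In the mutants of run 1 neither gene passed for Dex. Cxcl1 had a log2 fold change of 0.41 in GRD/D, 0.23 in GRD+L/D+L and −0.28 in GRko/ko, with standard errors of 0.23, 0.42 and 0.23. In GRD/D the Cxcl1 libraries with Dex, 4.42, 3.79 and 3.88 CPM, were all above those with vehicle, 3.42, 3.35 and 2.35, without passing. The vehicle level did differ. Cxcl5 in GRD+L/D+L with vehicle was 1.77, 1.53 and 1.23 CPM and Cxcl1 was 0.853, 1.15 and 0.476. All were below the GRwt/wt libraries, with log2 differences of −2.93 ± 0.32 (adjusted p = 6.38e-11) and −2.31 ± 0.35 (adjusted p = 2.67e-07), which are 7.61-fold and 4.94-fold. In GRko/ko Cxcl5 was 4.17, 2.04 and 4.11, lower with a log2 difference of −1.76 ± 0.23 (adjusted p = 2.03e-08), and Cxcl1 did not pass (−0.20 ± 0.22, adjusted p = 0.504). In GRD/D Cxcl1 did not pass either (−0.46 ± 0.23, adjusted p = 0.242).

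Cxcl10, an interferon-induced attractant of T cells that binds Cxcr3, and Ccl5, an attractant of T cells and monocytes, had the lowest levels per length of the 10 in GRwt/wt of both runs. In GRwt/wt of run 2, Cxcl10 had 28, 13 and 39 counts with vehicle and 10, 5 and 3 with Dex. In GRL/L it had 42, 30 and 40 and 8, 10 and 5. The treatments did not overlap in either genotype, and the log2 fold change was −2.04 ± 0.51 (adjusted p = 0.000554) in GRwt/wt and −2.04 ± 0.45 (adjusted p = 0.00027) in GRL/L. Their difference was 0.001 with an approximate 95% interval of −1.33 to 1.33, and differences within it were not detectable at this depth. The genes lie at Cxcl10 (chr5:92346638-92348889, minus strand), which overlaps Art3, and Ccl5 (chr11:83525778-83530518, minus strand).

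Ccl5 had 10, 9 and 14 counts with vehicle in GRwt/wt of run 2 and 9, 8 and 5 with Dex. The groups overlapped, and no fall was detected in GRwt/wt (−0.49 ± 0.46, adjusted p = 0.431) or in GRL/L (−0.44 ± 0.38, adjusted p = 0.491). In GRko/ko with vehicle, Cxcl10 had 11, 9 and 21 counts and Ccl5 had 10, 4 and 9, against 0, 4 and 2 and 1, 2 and 4 in GRwt/wt of run 1. Summed over the 3 libraries and scaled by their totals, Cxcl10 was 6.43 times as abundant (exact 95% interval of the counts 2.71 to 18.5) and Ccl5 was 3.09 times (1.28 to 8.53), intervals that cover counting error only. Within run 1 both genes passed the filter on low counts only through GRko/ko, so that these ratios are a description and the test of this difference is not used.

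Cxcl12 and Cxcl14 are homeostatic CXC ligands, Cxcl12 being the ligand of Cxcr4 that retains progenitors in the bone marrow. They are Cxcl12 (chr6:117168535-117181367, plus strand) and Cxcl14 (chr13:56288643-56296551, minus strand). Cxcl12 with vehicle was 12.3, 13.1 and 13.9 CPM in GRwt/wt of run 1 and 222, 219 and 229 in run 2. Cxcl14 with vehicle was 422, 403 and 411 in run 1 and 70.05, 67.8 and 79.7 in run 2. Cxcl12 was thus far higher and Cxcl14 far lower in run 2, without overlap, and run and culture cannot be told apart in this.

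Dex moved Cxcl12 in opposite directions in the runs. In GRwt/wt of run 1 the Dex libraries held 13.1, 19.1 and 20.8 CPM, and the log2 fold change was 0.43 ± 0.10 (adjusted p = 0.0033). Dex replicate 1 overlapped the vehicle range, while without Dex replicate 3 the rise was 0.29 (adjusted p = 0.0773). In run 2 they held 148, 159.6 and 155, below all vehicle libraries, with −0.54 ± 0.07 (adjusted p = 2.12e-08). The responses differed by −0.96 ± 0.12 (adjusted p = 5.22e-07). In GRL/L Cxcl12 went from 302, 278 and 280.3 to 218, 237 and 238, a log2 fold change of −0.31 ± 0.06 (adjusted p = 0.00031) that did not differ from GRwt/wt by the test (0.22 ± 0.09, adjusted p = 0.272, approximate 95% interval 0.04 to 0.40). Fitting 1 GRwt/wt response for both runs, as the formula of the study does, turned the run 1 value to −0.25.

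In GRD/D, GRD+L/D+L and GRko/ko no response of Cxcl12 passed, with log2 fold changes of −0.13, −0.12 and 0.05. Each differed from the rise in GRwt/wt of run 1, by −0.55 ± 0.14 (adjusted p = 0.0193), −0.54 ± 0.14 (adjusted p = 0.0129) and −0.38 ± 0.12 (adjusted p = 0.0469). These 3 differences share the GRwt/wt libraries. The call of GRko/ko was lost without any 1 of 25 of the 36 libraries (adjusted p up to 0.283). It held only without GRD/D Dex replicate 3 or any of its vehicle replicates, GRD+L/D+L vehicle replicate 1 or 3, GRL/L Dex replicate 1, or GRwt/wt Dex replicate 1, 4 or 5 or vehicle replicate 3. That of GRD/D was lost without its Dex replicate 1 or 2 or vehicle replicate 1 (up to 0.127 over all such libraries) and that of GRD+L/D+L without its vehicle replicate 3 (up to 0.105). All 3 were also lost without GRwt/wt Dex replicate 2 or 3 or vehicle replicate 1 of run 1. With only the libraries compared the calls of GRD/D (adjusted p = 0.174) and GRko/ko (0.0773) were lost as well. In the one fit for both runs all 3 turned positive (0.12, 0.13 and 0.30).

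The vehicle level of Cxcl12 was higher in every mutant than in its GRwt/wt. In GRko/ko it was 619, 622 and 627 CPM, 47.5-fold above GRwt/wt of run 1 (log2 5.57 ± 0.09, adjusted p = 9.59e-34). GRD+L/D+L held 28.9, 31.6 and 34.5, higher by log2 1.27 ± 0.10 (adjusted p = 5.69e-13). In GRD/D it was 20.4, 17.1 and 17.98 and in GRL/L 302, 278 and 280.3, higher by 0.49 ± 0.10 (adjusted p = 0.000954) and 0.36 ± 0.06 (adjusted p = 0.000117). No mutant library overlapped the GRwt/wt libraries of its run. The 2 sets of GRwt/wt themselves differed 17.1-fold with vehicle, and run and culture cannot be told apart in that. This was more than the 1.41-fold of GRD/D, the 2.42-fold of GRD+L/D+L and the 1.28-fold of GRL/L. The part of culture, or of the strain of GRko/ko, in these differences was not tested. In the one fit for both runs the call of GRD/D was lost (log2 0.13, adjusted p = 0.64).

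Cxcl14 was the one gene of the 10 whose fall with Dex passed the test in all 5 groups other than GRko/ko. Of these groups, Ccl2 and Cx3cl1 missed the threshold in GRD+L/D+L alone. DESeq2 called both falls there, at log2 −0.36 and −0.34 (adjusted p = 0.04 and 0.0255), so that this distinction rests on the threshold. In GRwt/wt the Dex libraries were 312, 325 and 305 CPM in run 1 and 25.6, 20.9 and 21.3 in run 2. Cxcl14 had log2 fold changes of −0.39 ± 0.06 (adjusted p = 4.9e-06) and −1.68 ± 0.07 (adjusted p = 6.46e-21), which differed by −1.29 ± 0.09 (adjusted p = 8.83e-13). In GRD/D it went from 453, 397 and 424 to 308, 366 and 346, in GRD+L/D+L from 308, 284 and 301 to 231, 240 and 245 and in GRL/L from 73.1, 76.6 and 75.4 to 26.3, 23.7 and 25.1. None of these pairs overlapped.

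The log2 fold change of Cxcl14 was −0.32 ± 0.06 (adjusted p = 0.000196) in GRD/D, −0.32 ± 0.06 (adjusted p = 0.000409) in GRD+L/D+L and −1.58 ± 0.07 (adjusted p = 7.5e-20) in GRL/L. The differences from the GRwt/wt of their run did not pass, at 0.07 (approximate 95% interval −0.10 to 0.24), 0.07 (−0.10 to 0.24) and 0.10 (−0.09 to 0.29). GRko/ko held 269, 281 and 275 CPM of Cxcl14 without Dex and 288, 269.8 and 272 with it, which overlapped, and its response differed from GRwt/wt by 0.40 ± 0.09 (adjusted p = 0.0012). With vehicle, Cxcl14 was lower in GRD+L/D+L (−0.47 ± 0.06, adjusted p = 9.4e-08) and in GRko/ko (−0.58 ± 0.06, adjusted p = 2.2e-10), and it did not pass in GRL/L (0.05 ± 0.06, adjusted p = 0.715). Under the one fit for both runs the falls in GRD/D and GRD+L/D+L missed the threshold (adjusted p = 0.205 and 0.382). In that fit their differences from GRwt/wt passed, at 0.63 and 0.64 (adjusted p = 0.0402 and 0.0394), so that the absence of a difference depends on the model.

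Cxcl16 and Cx3cl1 are made as membrane proteins and released by the proteases Adam10 and Adam17, and they bind Cxcr6 and Cx3cr1. Cx3cl1 in GRwt/wt went from 32.2, 29.7 and 35.4 CPM to 11.5, 14.2 and 15.6 in run 1. In run 2 it went from 59.1, 55.4 and 57.6 to 17.5, 17.9 and 19.02. Both falls were without overlap, at −1.24 ± 0.11 (adjusted p = 9.27e-12) and −1.66 ± 0.09 (adjusted p = 4.38e-18) on the log2 scale, and the difference of −0.42 ± 0.14 (adjusted p = 0.056) between the runs missed the threshold, though it passed with DESeq2 (adjusted p = 0.0341) and without any 1 of 8 libraries (0.0133 to 0.049), namely GRD/D Dex replicate 3 and vehicle replicates 2 and 3, GRD+L/D+L Dex replicate 3, GRL/L Dex replicate 1, and GRwt/wt Dex replicates 1 and 6 and vehicle replicate 3. Cx3cl1 had the largest fall in run 1 (2.36-fold).

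In GRD/D, Cx3cl1 was 41.9, 35.98 and 46.01 CPM with vehicle and 29.9, 32.2 and 36.3 with Dex. The groups overlapped slightly, and the log2 fold change of −0.33 ± 0.09 (adjusted p = 0.0119) lost its call without Dex replicate 1 or 2 or vehicle replicate 3 (adjusted p up to 0.0926) or with only the libraries compared (0.0885). GRD+L/D+L held 22.2, 19.96 and 20.4 and 15.6, 14.6 and 19.2, a log2 fold change of −0.34 ± 0.11 (adjusted p = 0.062) that missed the threshold and passed it with DESeq2 (adjusted p = 0.0255) and without any 1 of GRD/D vehicle replicates 2 and 3, GRD+L/D+L Dex replicate 3 and GRwt/wt Dex replicate 1 (0.0128 to 0.0434). The fall in GRD+L/D+L also passed with only the libraries compared (0.0035), without a filter on low counts (0.00645) and with a replicate block (0.0466). The responses differed from GRwt/wt of run 1 by 0.91 ± 0.14 (adjusted p = 2.27e-05) and 0.90 ± 0.15 (adjusted p = 0.000104), and that of GRko/ko by 1.25 ± 0.13 (adjusted p = 4.01e-09). GRL/L fell with −1.35 ± 0.08 (adjusted p = 1.29e-15), and its difference of 0.31 ± 0.12 (adjusted p = 0.229) from GRwt/wt of run 2 did not pass (approximate 95% interval 0.08 to 0.55).

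Cxcl16 in GRwt/wt went from 7.01, 7.06 and 8.04 CPM to 5.20, 4.93 and 5.28 in run 1 and from 8.82, 9.04 and 10.99 to 5.86, 5.40 and 4.32 in run 2. On the log2 scale Cxcl16 changed by −0.52 ± 0.14 (adjusted p = 0.00949) and −0.89 ± 0.11 (adjusted p = 5.33e-08), and the runs did not differ by the test (−0.37 ± 0.18, adjusted p = 0.277). The first of these lost its call without vehicle replicate 3 (adjusted p = 0.0645). In GRD/D it was 10.9, 11.7 and 11.2 without Dex and 10.3, 12.3 and 11.4 with it (0.003 ± 0.11, adjusted p = 0.993). For GRD+L/D+L it went from 9.38, 9.21 and 10.4 to 7.07, 7.34 and 5.95 (−0.51 ± 0.13, adjusted p = 0.0111), a call lost without replicate 3 of either treatment (adjusted p up to 0.0962). These responses of GRD/D and GRD+L/D+L were not tested against each other.

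The difference of Cxcl16 from GRwt/wt of run 1 was 0.52 ± 0.18 (adjusted p = 0.135) in GRD/D and 0.01 ± 0.19 (adjusted p = 0.998) in GRD+L/D+L, neither of which passed, and 0.60 ± 0.16 (adjusted p = 0.0152) in GRko/ko, the last being lost without GRwt/wt vehicle replicate 3 (adjusted p = 0.0625). In the one fit for both runs the difference in GRD/D passed, at 0.75 (adjusted p = 0.000834). GRL/L fell with −0.76 ± 0.10 (adjusted p = 4.23e-07), and had a difference of 0.13 ± 0.15 (adjusted p = 0.819). The genes are Cxcl16 (chr11:70453983-70459984, minus strand), which overlaps Zmynd15, and Cx3cl1 (chr8:94772009-94782427, plus strand). With vehicle, Cxcl16 was 45.5, 41.8 and 49.2 CPM in GRko/ko and Cx3cl1 was 111, 105 and 110.4, 6.16-fold and 3.35-fold above GRwt/wt of run 1 (log2 2.62 ± 0.11, adjusted p = 6.03e-22 and 1.74 ± 0.09, adjusted p = 2.96e-19). In GRD/D both were higher, by 0.61 ± 0.12 (adjusted p = 0.000548) and 0.35 ± 0.09 (adjusted p = 0.00941), the second being lost without GRD/D vehicle replicate 3 or GRwt/wt vehicle replicate 2 (adjusted p up to 0.0671), with only the libraries compared (0.0568) or in the one fit for both runs (0.0871). In GRD+L/D+L Cxcl16 was higher by 0.39 ± 0.13 (adjusted p = 0.0185), which was lost without GRD+L/D+L vehicle replicate 3 or GRwt/wt vehicle replicate 1 or 2 (up to 0.0852) or in that one fit (0.064), and Cx3cl1 was lower, with a log2 difference of −0.64 ± 0.10 (adjusted p = 3.79e-06). In GRL/L Cxcl16 missed the threshold (0.25 ± 0.10, adjusted p = 0.0939) and passed it without GRwt/wt vehicle replicate 6 (adjusted p = 0.0281) or GRL/L vehicle replicate 3 (0.00899).

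**Figure D2:**
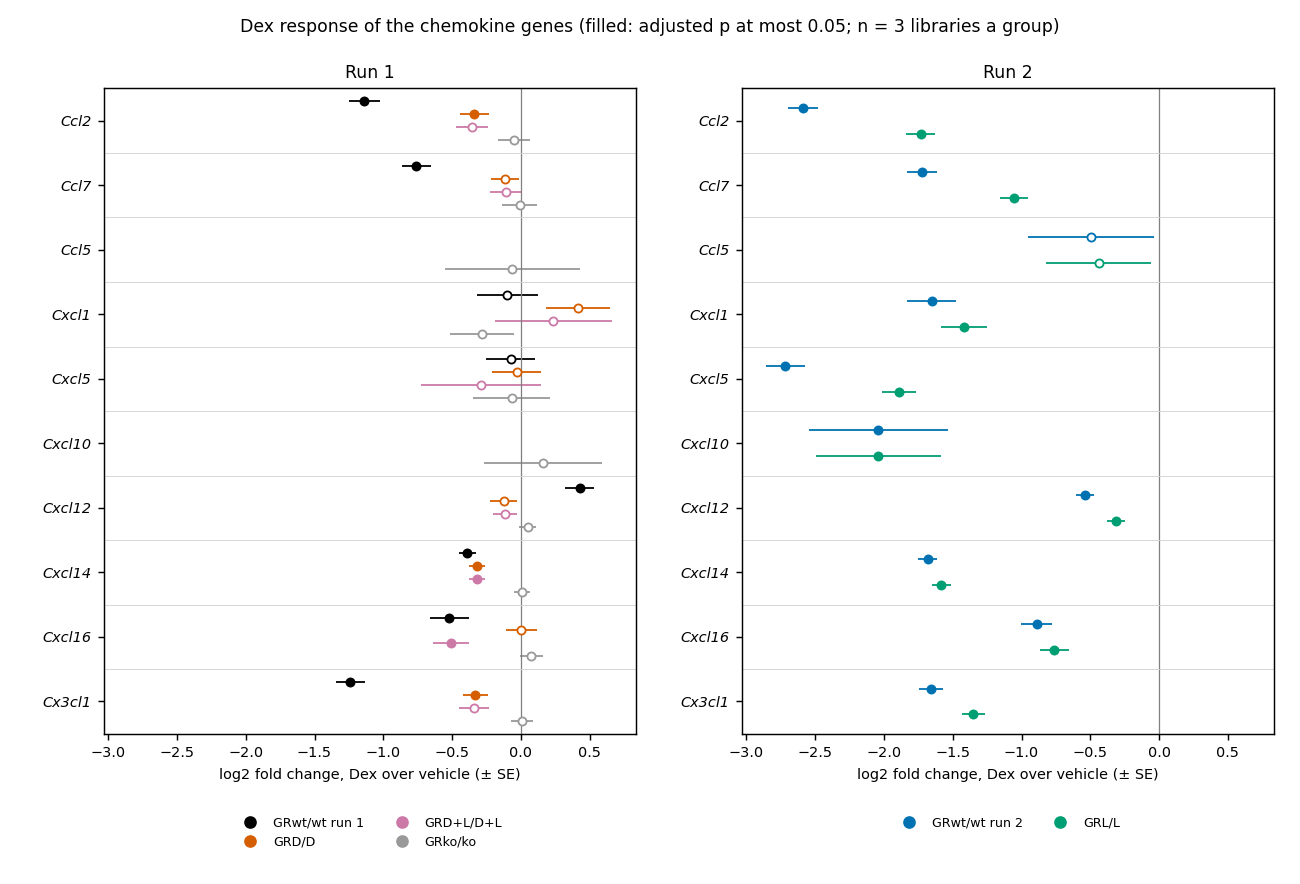
Log2 fold change of Dex over vehicle (horizontal axis, bars ± SE) for the 10 genes (vertical axis) in run 1 and run 2, by genotype in colour. Filled circles passed the test, open ones did not, and genes with a mean of at most 3 counts in both treatments are not drawn; in run 2 all values lie below 0, from −2.71 to −0.31, while the GRko/ko values lie between −0.28 and 0.16.

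Taking the comparisons by genotype, the Dex response of 4 genes differed between GRD/D and GRwt/wt of run 1, against 3.29% of all genes tested, namely Ccl2, Ccl7, Cx3cl1 and Cxcl12. The same 4 differed in GRD+L/D+L, against 3.23% of all genes. In GRko/ko 6 differed (these 4, Cxcl14 and Cxcl16), against 8.48%. In GRL/L 3 differed from GRwt/wt of run 2 (Ccl2, Ccl7 and Cxcl5), against 1.85%. Between the GRwt/wt of the runs 6 differed, against 7.09%, all of them with a lower log2 fold change in run 2. The fit of 1 GRwt/wt response for both runs gave 7 differing genes in GRD/D and 0 in GRL/L, so that these 2 counts rest on setting each mutant against its own run, and it gave 4 in GRD+L/D+L and 5 in GRko/ko. The 4 in GRD+L/D+L were not the same genes, as Cxcl14 was gained (0.64, adjusted p = 0.0394) and Cxcl12 was lost (0.13, adjusted p = 0.744). The counts of this fit are given without its share of all genes called.

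With vehicle, 3 genes were higher in GRD/D (Cxcl12, Cxcl16 and Cx3cl1), where 5.66% of all genes were, and 0 were lower, where 3.89% were. GRD+L/D+L had 6 that were lower (Ccl2, Ccl7, Cxcl1, Cxcl5, Cxcl14 and Cx3cl1), against 15.9% of all genes, and 2 that were higher (Cxcl12 and Cxcl16), against 13.9%. In GRko/ko 3 were higher (Cxcl12, Cxcl16 and Cx3cl1; Ccl5 and Cxcl10 are left out of this count), against 24.4%, and 4 were lower (Ccl2, Ccl7, Cxcl5 and Cxcl14), against 21.3%. In GRL/L Cxcl12 was higher, against 6.88% of all genes, and Ccl2 and Ccl7 were lower, against 4.47%. GRko/ko and GRD+L/D+L thus shared lower Ccl2, Ccl7, Cxcl5 and Cxcl14 and higher Cxcl12 and Cxcl16, and went opposite ways for Cx3cl1, and both were set against the same GRwt/wt libraries.

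**Figure D3:**
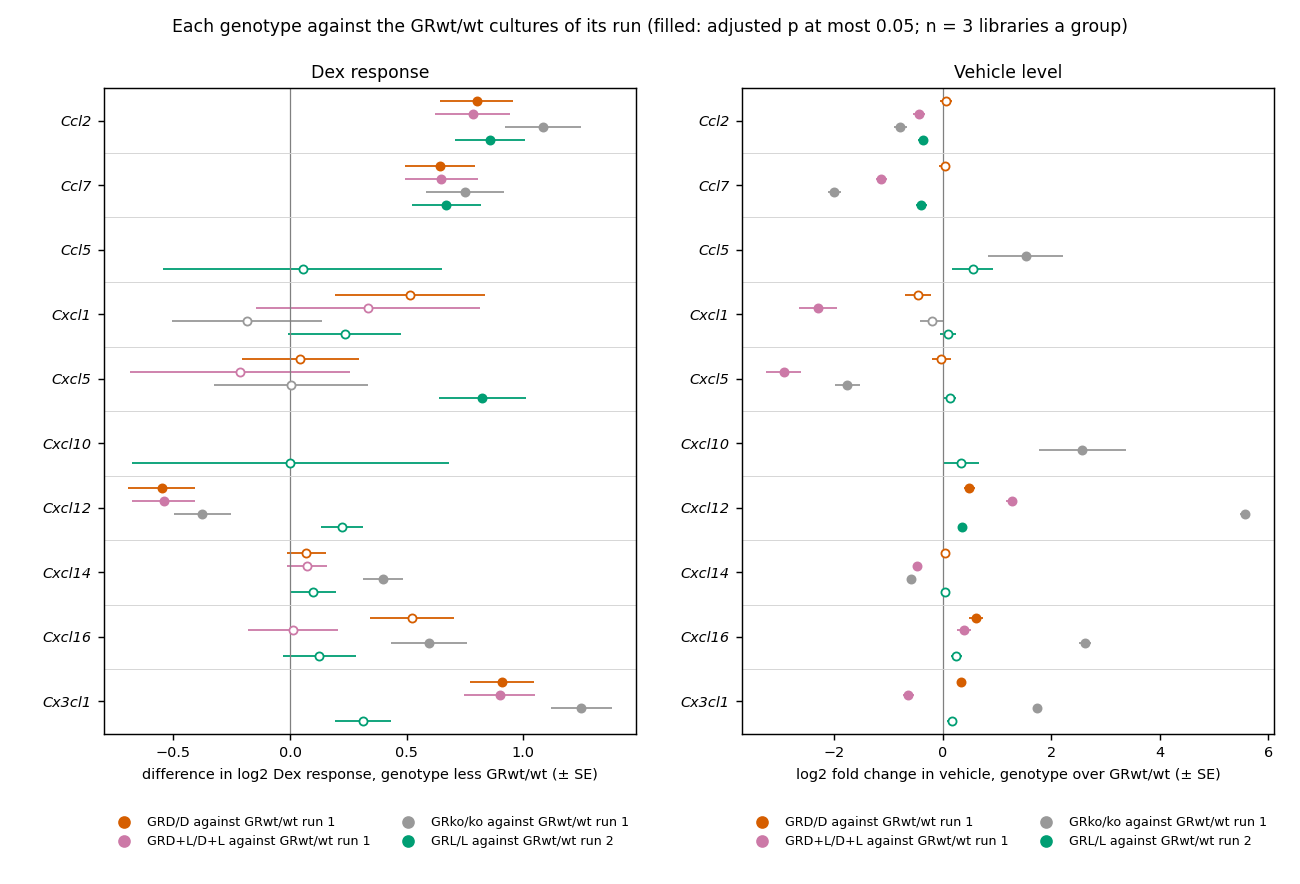
Left, difference in the log2 Dex response between each genotype and the GRwt/wt of its run; right, log2 fold change of the vehicle level (horizontal axes, bars ± SE, genes on the vertical axes). Filled circles passed the test, which is not used for Ccl5 and Cxcl10 in GRko/ko with vehicle; on the left the Ccl2 differences lie between 0.78 and 1.08 in all 4 genotypes, and on the right Cxcl12 in GRko/ko lies at 5.57.

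Markers of other cells moved with genotype in the same vehicle libraries. The summed level of 17 macrophage markers was 262 to 464 CPM in GRwt/wt of run 1, 957 to 1012 in GRD/D, 41.5 to 52.4 in GRD+L/D+L and 3885 to 4259 in GRko/ko. In run 2 it was 589.9 to 629.6 CPM in GRwt/wt and 1098 to 1304 in GRL/L. Of the 17 markers, 16 were higher in GRD/D, against 5.66% of all genes, and 16 lower in GRD+L/D+L, against 15.9%. In GRko/ko 17 were higher, against 24.4%, and in GRL/L 16 were, against 6.88%. None was at 0 throughout any group. The macrophage gene Lyz2 was at 1817 ± 122 CPM (SD, n = 3) in GRko/ko and at 22.5 ± 3.27 in GRD+L/D+L. With Dex the sums were 278 to 443 CPM in GRwt/wt of run 1 and 563 to 619.9 in GRwt/wt of run 2. In GRL/L 6 of the 17 fell with Dex, against 10.4% of all genes, and 2 rose, against 8.79%. In GRwt/wt of run 2, 2 fell, against 16.7%, and 3 rose, against 14.9%. The 5 cartilage markers summed to 160.5 to 529 CPM in GRko/ko and 4.02 to 4.66 in GRwt/wt of run 1, and the muscle gene Acta1 stood at 648 to 756 CPM in GRwt/wt of run 1 and 6.60 to 8.10 in run 2, with Myod1 at 0 in the former. With vehicle, 6 endothelial markers summed to 6.70 to 19.3 CPM over all groups, with Tie1 at 0 in GRwt/wt of run 1 and GRD/D, and 6 epithelial ones to 1.61 to 9.35 outside the library rich in keratins. In a bulk sample fewer cells of a type and less RNA per cell cannot be told apart, and the part of these markers in the chemokine levels was not tested.

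Per length of exon (RPKM), the order of the levels with vehicle differed between the runs. In GRwt/wt of run 1 Cxcl14 led with 226 ± 5.33 RPKM (SD, n = 3), followed by Ccl7 with 134 ± 5.55 and Ccl2 with 67.1 ± 3.82. These 3 were apart from each other beyond their spread, and then came Cx3cl1 with 8.25 ± 0.717 and Cxcl5 with 6.22 ± 1.08. Cxcl16 (2.44 ± 0.194) and Cxcl1 (2.21 ± 0.392) lay within their spread of each other, above Cxcl12 (1.60 ± 0.0951). In run 2 Ccl7 (137 ± 17.9) and Ccl2 (126 ± 23.1) lay within their spread of each other, and Cxcl14 (39.7 ± 3.46) and Cxcl5 (32.8 ± 7.14) followed. In GRko/ko Cxcl12 came next to the top with 76.2 ± 0.5004 RPKM, behind Cxcl14 with 150.5 ± 3.30.

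Of 38 chemokine ligand genes listed, 27 were tested, 17 of them outside the 10 described. Among these 17, Dex lowered 1 (Cxcl3, −1.29 ± 0.37, adjusted p = 0.0107) and raised 0 in GRwt/wt of run 1, where 6.2% of all genes fell and 7.74% rose. In run 2 Dex lowered 8 and raised 0, where 16.7% of all genes fell and 14.9% rose. The 8 were Ccl4, Ccl6, Ccl8, Ccl11, Ccl12, Ccl20, Cxcl2 and Cxcl3, and the median log2 fold change of the 17 was −0.59. In GRL/L 7 fell, against 10.4% of all genes, and 1 (Ccl9) rose, against 8.79%. In GRD/D 0 fell, against 6.24% of all genes, and 3 rose, against 5.63%. These were Ccl3 (1.54 ± 0.20, adjusted p = 3.75e-07), Ccl9 (1.20 ± 0.20, adjusted p = 4.37e-05) and Ccl4. The response of Ccl3 and of Ccl9 also differed between GRD/D and GRwt/wt of run 1. In GRD+L/D+L 0 of the 17 passed, where 1.92% of all genes fell and 3.08% rose, and in GRko/ko 0 did, against 0.0%. Ccl11, the eosinophil attractant eotaxin, had −1.81 ± 0.18 (adjusted p = 2.22e-10) in GRwt/wt of run 2 and −0.99 ± 0.18 (adjusted p = 4.29e-05) in GRL/L, against −0.41 ± 0.21 (adjusted p = 0.233) in run 1.

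**Figure D4:**
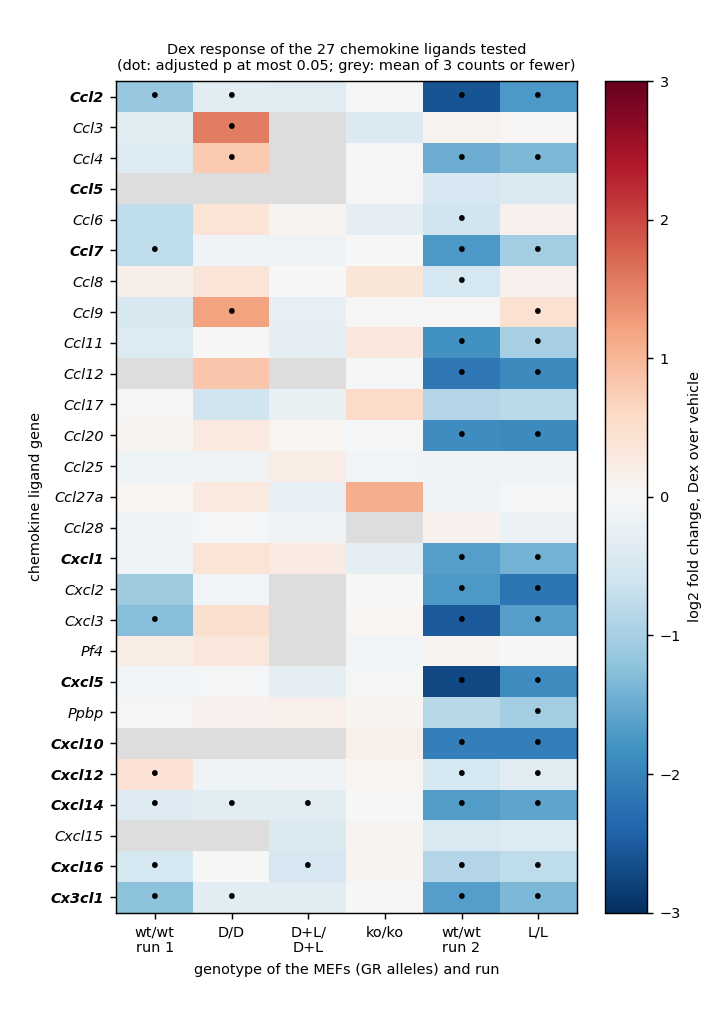
Log2 fold change of Dex over vehicle (colour, from −3 to 3) for the 27 chemokine ligand genes tested (rows, the 10 described in bold) in each genotype and run (columns). Dots mark genes that passed the test and grey marks those with a mean of at most 3 counts in both treatments; most dots lie in the 2 columns of run 2, with 17 genes lowered in GRwt/wt and 16 in GRL/L, and GRko/ko has none.

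The receptors and scavengers of these ligands were mostly too low to test in fibroblast cultures, with 9 of 23 tested. Ackr4, a scavenger of CC chemokines, rose with Dex in GRwt/wt of both runs (2.40 ± 0.53, adjusted p = 0.000108 and 3.09 ± 0.22, adjusted p = 1.43e-15) and in GRL/L (2.15 ± 0.22, adjusted p = 1.66e-10). Cxcr6, the receptor of Cxcl16, fell in 5 of 6 comparisons, from −2.81 in GRwt/wt of run 2 to −0.48 in GRD+L/D+L, and did not pass in GRko/ko. Ackr3, the scavenger of Cxcl12, fell in GRwt/wt of both runs (−0.36 ± 0.10, adjusted p = 0.0125 and −0.29 ± 0.09, adjusted p = 0.00877) and rose in GRD/D (0.34 ± 0.09, adjusted p = 0.00634). That response differed from GRwt/wt of run 1 by 0.69 ± 0.13 (adjusted p = 0.000664). In all, 3 receptors or scavengers fell and 1 rose in GRwt/wt of run 1, against 6.2% and 7.74% of all genes, and 6 fell and 1 rose in run 2, against 16.7% and 14.9%.

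Of 16 regulators of NF-κB and interferon signalling, all tested, 6 fell and 1 rose with Dex in GRwt/wt of run 1, against 6.2% and 7.74% of all genes. In run 2, 9 fell and 2 rose, against 16.7% and 14.9%, and in GRL/L 8 fell and 1 rose, against 10.4% and 8.79%. Nfkbia, which holds NF-κB in the cytoplasm, rose in GRwt/wt (0.63 ± 0.08, adjusted p = 2.25e-07 in run 1, 0.88 ± 0.07, adjusted p = 1.87e-13 in run 2) and in GRL/L (0.79 ± 0.07, adjusted p = 7.95e-12), and not by the test in GRD/D (0.24 ± 0.08, adjusted p = 0.0574) or GRD+L/D+L (−0.01 ± 0.09, adjusted p = 0.987). Relb, a subunit of NF-κB, fell in GRwt/wt (−0.71 ± 0.09, adjusted p = 7.64e-08 in run 1) and GRL/L, and its response was smaller in GRD/D, by 0.62 ± 0.12 (adjusted p = 0.000952). Nfkbiz and Irf1 fell in all 5 groups other than GRko/ko. For Nfkbiz the log2 fold change was −0.93 in GRwt/wt of run 1, −0.76 in GRD/D and −0.56 in GRD+L/D+L.

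Zfp36, whose protein destabilises mRNAs such as those of chemokines, rose in GRwt/wt of run 1 (0.58 ± 0.08, adjusted p = 1.23e-06) and run 2 (0.64 ± 0.08, adjusted p = 6.81e-08), in GRL/L (0.30 ± 0.08, adjusted p = 0.00629) and in GRD/D (0.25 ± 0.08, adjusted p = 0.0462). Of 10 genes of chemokine processing and mRNA decay, 2 rose and 1 fell in each GRwt/wt set, Zfp36 and Zfp36l2 being those that rose, against 7.74% of all genes rising and 6.2% falling in run 1 and 14.9% and 16.7% in run 2. Of 9 interferon-stimulated genes tested out of 10 listed, 0 passed in GRwt/wt of run 1, 1 fell in run 2 (Rsad2), against 16.7% of all genes, and 4 fell in GRL/L (Rsad2, Oasl2, Isg15 and Bst2), against 10.4%. In GRko/ko with vehicle 11 of the 16 regulators and 4 of the 9 interferon-stimulated genes were higher than in GRwt/wt of run 1, against 24.4% of all genes, and none was lower, against 21.3%.

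Over the 36 libraries, with each run set relative to its own GRwt/wt vehicle mean, the gene most like Ccl2 in pattern was Lrrc32 (Pearson r = 0.965), followed by Ccn4 (0.947), and Ccn4 was also the most like Cxcl14 (0.956). Cxcl14 and Ccl2 correlated at 0.937, and Cxcl1 was most like Cxcl5 (0.869). The genes most like Cxcl12 were Acaa1a (0.98) and Gm10036 (0.979), those most like Cxcl16 were Pik3r5 (0.973) and Ifnar1 (0.97), and those most like Cx3cl1 were Rab7b (0.969) and Kif21b (0.964). For Ccl7 they were Ripk3 (0.909) and Ptger4 (0.905), for Cxcl5 S1pr2 (0.907) and Ppp1r3b (0.882), for Cxcl10 Tnip3 (0.877) and Sbno2 (0.86), for Ccl5 Rinl (0.797), and second to Cxcl5 for Cxcl1 was Emb (0.864). The 36 libraries are replicates of 12 groups, so that these values describe the 12 groups more than 36 independent points.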

How the data were processed

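RNA-seq was performed on 36 libraries of primary MEFs. Per the labels, the submitters' processing notes and the study's methods, the authors aligned NextSeq reads of TruSeq libraries to mm10 with HISAT2 2.1.0, counted uniquely mapped reads per gene with featureCounts 2.0.0 and used DESeq2. The strand setting and the annotation version are not given in the sources used here. The authors deposited raw counts for 55487 genes, of which 55141 IDs had a symbol. Counts were tested as deposited with edgeR 4.0.16 (limma 3.58.1, R 4.3.3): genes were kept by filterByExpr over 12 groups (15489 genes with 99.93% of counts), TMM-normalised and fitted with 1 mean per group by the quasi-likelihood method with 24 residual degrees of freedom, and p-values were adjusted by Benjamini-Hochberg over all genes tested. A gene passed at an adjusted p of at most 0.05. The study used a formula of run plus 10 conditions, DESeq2 and a log2 fold limit of 1; each of the 3 was run here as an alternative of its own, and they were not combined. Intervals of log2 values are 1.96 standard errors to either side and are not adjusted for the number of genes. The scripts were tested on simulated data. Library totals were 15280166 to 28662608 counts, so that a gene of a few counts has a wide error. The 3 libraries of a group are from separate mice per the series design. GRD/D, GRD+L/D+L and GRko/ko were set against the same GRwt/wt libraries of run 1, and GRL/L against GRwt/wt of run 2. No pair of libraries of the same group agreed within sampling noise, and pairs across groups were not compared. Alternatives were DESeq2 1.42.0 (also its size factors in edgeR), no filter, at least 10 counts in every library, only the libraries compared, a replicate block, a log2 fold limit of 1 and leaving out each of the 36 libraries. The 10 genes, Nr3c1, members of the gene lists and the 2 genes most correlated with each of the 10 were named (1 of these is not reported here), and the genes and lists were chosen with earlier results of these data known. Figures were drawn with matplotlib 3.10.9 under Python 3.11.15.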

Additional observations from a re-analysis of the deposited data

Results flagged for a closer look

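The Dex response of several chemokines differed between a genotype and the GRwt/wt of its run by the edgeR test of the difference itself, given here as log2 differences (mutant minus GRwt/wt). In GRD/D these were 0.80 for Ccl2, 0.64 for Ccl7, 0.91 for Cx3cl1 and −0.55 for Cxcl12. In GRD+L/D+L they were 0.78 for Ccl2, 0.65 for Ccl7, 0.90 for Cx3cl1 and −0.54 for Cxcl12. In GRko/ko they were 1.08 for Ccl2, 0.75 for Ccl7, 1.25 for Cx3cl1, 0.40 for Cxcl14, 0.60 for Cxcl16 and −0.38 for Cxcl12. These 3 genotypes share their GRwt/wt libraries. In GRL/L they were 0.86 for Ccl2, 0.67 for Ccl7 and 0.82 for Cxcl5.

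The GRwt/wt cultures of the runs also differed from each other in their Dex response (run 2 minus run 1), by −1.45 for Ccl2, −0.96 for Ccl7, −1.55 for Cxcl1, −2.64 for Cxcl5, −0.96 for Cxcl12 and −1.29 for Cxcl14. Run and culture cannot be told apart in these values.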

How the results depend on the processing

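Of 110 values of single genes, 105 kept their direction and side of the threshold with DESeq2, 110 of 110 with DESeq2 size factors in edgeR, 105 without a filter and 88 of 89 with at least 10 counts in every library. With only the libraries compared 103 of 110 did, and with a replicate block 100 of 103. With run plus 10 conditions 73 of 102 did, while 11 changed direction, 10 lost their call and 8 gained one. Asking also for a log2 change of 1 or more in size left 2 chemokines called in GRwt/wt of run 1, 0 in GRD/D and 0 in GRD+L/D+L, 2 differences in GRko/ko and 0 in GRD/D, GRD+L/D+L and GRL/L, and 4 vehicle levels in GRD+L/D+L and 0 in GRD/D and GRL/L. With DESeq2, without a filter or with only the libraries compared, 4 were called in GRD+L/D+L, and with only the libraries compared 1 in GRD/D. Leaving out 1 library gave 1 to 3 in GRD/D and 1 to 4 in GRD+L/D+L. Counts of chemokines called under an alternative, here and below, are given without the share of all genes called under it. They show how far the calls moved and not how the chemokines compare with other genes.

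Run plus 10 conditions, which fits 1 GRwt/wt response to both runs, left 1 called in GRD/D and 1 in GRD+L/D+L, 7 differences in GRD/D and 0 in GRL/L. It turned Cxcl12 to −0.25 in GRwt/wt of run 1 and its differences to 0.12 in GRD/D, 0.13 in GRD+L/D+L, 0.30 in GRko/ko and −0.067 in GRL/L. It also turned the GRL/L differences of Cxcl1 (−0.36), Cxcl5 (−0.17), Cxcl10 (−0.46), Cxcl14 (−0.63) and Cxcl16 (−0.018), and the vehicle level of Ccl2 in GRD/D (−0.30). Among the 8 calls it added were the vehicle levels of Cxcl1 in GRD/D (−0.90, adjusted p = 0.0302) and Cxcl16 in GRL/L (0.31, adjusted p = 0.0326). It also added the differences of Cxcl1 (1.48, adjusted p = 0.00724), Cxcl14 (0.63, 0.0402) and Cxcl16 (0.75, 0.000834) in GRD/D and of Cxcl14 in GRD+L/D+L (0.64, 0.0394). The rest were the falls of Cxcl1 (−1.06, adjusted p = 1.83e-05) and Cxcl5 (−1.73, 5.37e-07) fitted for GRwt/wt. The cause was not tested for the other settings.

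The values of these changed sign when 1 library was left out: Cxcl1 (−0.19 to 0.051) and Cxcl5 (−0.21 to 0.012) in GRwt/wt of run 1, Cxcl16 in GRD/D (−0.056 to 0.067), Cxcl1 in GRD+L/D+L (−0.032 to 0.55), Cxcl1 (−0.51 to 0.073) and Cxcl10 (−0.10 to 0.66) in GRko/ko, the differences of Cxcl16 in GRD+L/D+L (−0.061 to 0.094) and Cxcl10 in GRL/L (−0.40 to 0.59), and the vehicle levels of Ccl2 in GRD/D (−0.063 to 0.18) and Cxcl1 in GRko/ko (−0.56 to 0.025). None of these passed the test.

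Vehicle and Dex libraries of 1 number did not deviate together (18 correlations, −0.079 to 0.116, 1 of them over 0.1). This cannot tell whether libraries of 1 number came from 1 culture, since cultures that hardly differ would give the same. The study describes 3 cultures a genotype, stimulated with vehicle or Dex, so that both treatments of a run would share their cultures. The main fit left libraries of 1 number unpaired, and the replicate block paired them. How far the 3 libraries of a group cover the spread between mice was not tested. With the replicate block 3 chemokines were called in GRD+L/D+L, Cx3cl1 being added (adjusted p = 0.0466), the difference of Cx3cl1 between the runs passed (0.0475), and the GRL/L difference of Cxcl10 was −0.023 (−0.0002 without a filter). Depth limits Ccl5 and Cxcl10, at 0 to 4 counts in 18 libraries of run 1.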
